A study of Sus scrofa with 8 samples.

Results

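The miR-183, miR-96 and miR-182 cluster was followed in the corpus luteum of the pig, the gland that forms from an ovulated follicle and secretes progesterone. Its members were taken as every array target named miR-183, miR-96 or miR-182 exactly, whatever its species prefix or arm, which gave 5 of the 686 miRNA targets of a 1-colour Agilent array. These are ssc-miR-96-5p, ssc-miR-182 and ssc-miR-183, the porcine entries, and hsa-miR-182-3p and hsa-miR-183-3p, human entries for the opposite strand of the hairpin. They were measured by 15 probes in 100 spots per array. Luteal tissue came from crossbred gilts of 6 to 8 months, all from 1 commercial herd, and was taken after death on day 14. The cyclic group (4 arrays) was not inseminated, and the pregnant group (4 arrays) was inseminated 12 and 24 hours after the second estrus was detected. Each array held the RNA of 1 gland sample, and the labels number these samples as biological replicates. The tissue is whole gland, so fewer cells of a type and less miRNA per cell cannot be told apart.

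The 3 miRNAs are cut from neighbouring hairpins, and in the RefSeq annotation of the pig genome their genes follow each other as MIR183, MIR96 and MIR182 between UBE2H and NRF1, with 0 other annotated genes among them. In mammals the cluster is best known from sensory organs such as the inner ear and retina, and from many epithelia and tumours. Its members pair with similar sites, and FOXO1, a transcription factor that promotes cell cycle arrest and apoptosis, is a target of all of them in human cancer cells. In cattle, miR-96 has been described as a luteal miRNA that favours luteal cell survival and progesterone output, with FOXO1 as a target.

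On each array the scanner software called 22.8% to 28.8% of the spots well above background and 0 saturated. Signals were background-subtracted intensities, given below as a percentage of the 75th percentile of each array over the 166 targets detected on all 8 arrays, which lay between 189 and 316 intensity units. A target counted as detected on an array where at least 0.5 of the spots of 1 of its probes were well above background, and a target entered the test with detection on 4 arrays or more, which 163 porcine targets and 49 of other species reached. By slide, pregnant replicates 1 and 2 shared slide 1, cyclic replicates 1 and 2 shared slide 2, and replicates 3 and 4 of both groups shared slide 3. Slide 1 was scanned on a day of its own. As a check of the tissue, the muscle miR-1, miR-133 and miR-206 and the hepatic miR-122 (8 entries in all) were detected on 0 arrays, and the gonad-enriched ssc-miR-202-3p on all 8.

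Of the 5 members, ssc-miR-182 was detected on all 8 arrays and ssc-miR-96-5p on 5 (4 cyclic and 1 pregnant), so these 2 were tested, and the other 3 were detected on none. The filter of 4 arrays was thus met by miR-96-5p through the cyclic group, where it was higher, and its test is to be read with that choice. The tested members were dim. By mean log2 signal they stood 131st and 177th among the tested targets, with ssc-miR-182 in the first of these places. In pregnancy miR-182 averaged 0.909 of its cyclic level. The fitted value for miR-96-5p was 0.50, with 3 of the 4 pregnant arrays set to the floor described below, so that it is no measured ratio. In limma, 0 of the 2 passed at an adjusted p under 0.05 (Benjamini-Hochberg over all tested targets), against 11.3% of all tested targets, of which 6.13% were lower and 5.19% higher in pregnancy. That share rests on 24 targets, a count that ran from 7 to 81 with 1 array left out.

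The guide strand miR-96-5p, the member tied to luteal function in cattle, was read by 2 probes of 10 spots each. On its brighter probe the signal was 10.9%, 5.50%, 9.11% and 10.2% of the 75th percentile on cyclic replicates 1 to 4. On pregnant replicates 1 to 4 it was 8.57%, 2.84%, 1.82% and 2.93%. Pregnant replicate 1 thus lay among the cyclic arrays, above cyclic replicate 2, while the other 3 pregnant arrays lay below every cyclic array. The group means were 8.93% ± 2.40 in the cycle and 4.04% ± 3.06 in pregnancy (SD, n = 4 each).

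These readings sat close to the limit of the scanner. As unscaled intensities, the brighter probe read 24.9, 16.4, 17.6 and 32.3 units on cyclic replicates 1 to 4, 23.6 on pregnant replicate 1, and 6.70, 5.47 and 5.54 on pregnant replicates 2, 3 and 4. For comparison, the 95th percentile of the negative control spots was 3.41 to 5.11 units on the 8 arrays. Spots of the same probe agreed to a coefficient of variation of 6.13% to 14.9% on the 4 cyclic arrays and pregnant replicate 1. On the other 3 pregnant arrays it was 24.4% to 45.2%. The low pregnant arrays were low on both probes: the dimmer probe gave 2.55%, 1.31% and 2.08% of the 75th percentile there, against 6.23% on pregnant replicate 1 and 4.44% to 8.48% on the cyclic arrays.

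**Figure D1:**
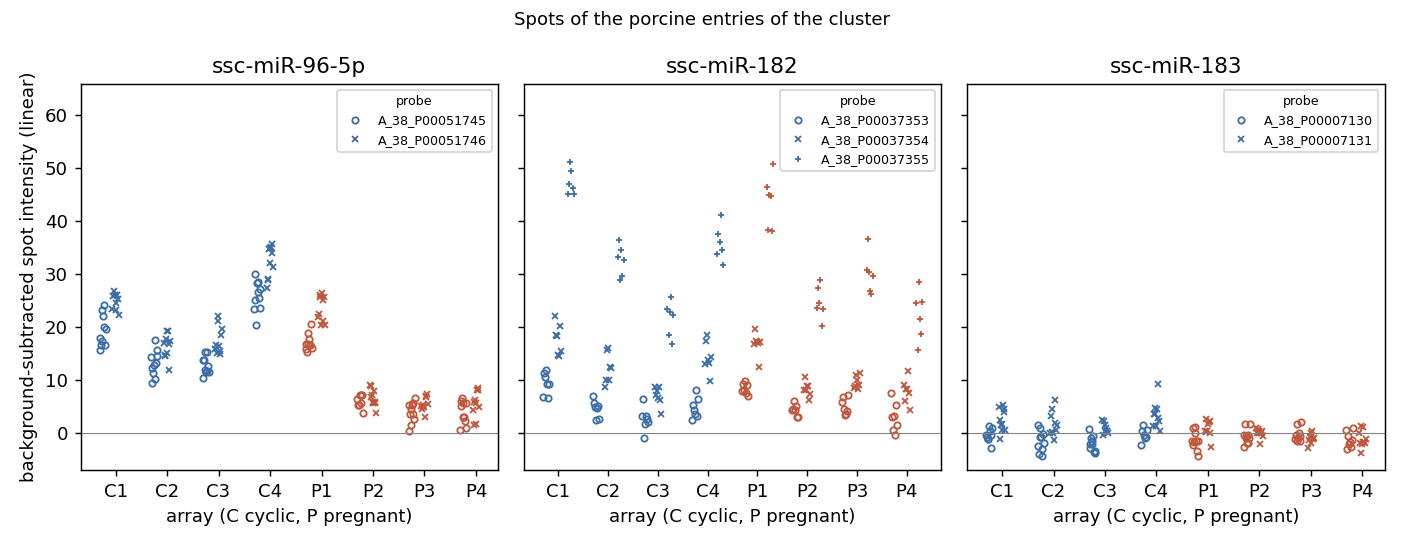
Background-subtracted intensity (vertical axis, linear scale) of every spot used for ssc-miR-96-5p, ssc-miR-182 and ssc-miR-183 on the 4 cyclic (C1 to C4, blue) and 4 pregnant (P1 to P4, red) arrays, with a symbol for each probe. Spots of miR-96-5p on pregnant replicates 2, 3 and 4 lie under those of every other array, those of miR-182 are highest on replicate 1 of either group, and those of miR-183 lie around 0.

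Counting the spots well above background, the measure behind the detection calls, restates those calls without any scaling and is no separate support. By this count pregnant replicates 2, 3 and 4 lay below every other array. Of the spots used for miR-96-5p, 19 of 19, 16 of 20, 19 of 20 and 20 of 20 were well above background on cyclic replicates 1 to 4. In pregnancy the counts were 20 of 20 on replicate 1, then 1 of 18, 0 of 20 and 0 of 20. The mean share, pregnant minus cyclic, differed by −67.4 percentage points (exact 2-sided permutation test, p = 0.143, where the smallest p that 4 against 4 arrays allow is 0.0286). Under the scanner's weaker criterion of a positive and significant signal, 16 to 18 spots still counted on each of those 3 arrays, and the mean share differed by −7.5 points (exact permutation p = 0.429). The brighter probe averaged above the 95th percentile of the negative controls on those arrays. The dimmer probe did so on pregnant replicate 2 (6.03 units), whereas its 3.94 and 3.93 units on replicates 3 and 4 lay under the 5.11 and 4.17 units of the controls.

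For the test, signals were floored at 3.44% of the 75th percentile (log2 −4.86), the 1st percentile of the detected signals, and taken as log2. The 3 low pregnant arrays fell on this floor, as did at least 1 array of 24 tested targets in all. On this scale miR-96-5p averaged −3.53 ± 0.45 in the cycle and −4.53 ± 0.66 in pregnancy (SD, n = 4). The difference of −1.0 ± 0.32 (SE, 95% confidence interval −1.71 to −0.29) had an adjusted p of 0.0698 in limma and did not pass. Its unadjusted p of 0.00988 ranked 30th among the tested targets, of which 34.4% had an unadjusted p under 0.05, and the size of its difference ranked 12th.

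The floor raises the low pregnant arrays, so this difference understates the gap. It also gives those arrays 1 common value, so the SE and the interval leave out the spread among them. With 0.5 of that floor, under which no reading of the brighter probe fell, the difference was −1.36 ± 0.42 (adjusted p = 0.0602), or 0.390 of the cyclic level. With the floor at the 5th percentile it was −0.76 (adjusted p = 0.122). A looser detection filter also raised the adjusted p, to 0.114 with detection on at least 1 array and to 0.388 with no filter. Without pregnant replicate 1 the difference was −1.33 ± 0.24 (adjusted p = 0.0147), but the 3 pregnant arrays then left all lie at the floor and have a spread of 0 by construction, so this pass is not read. Without cyclic replicate 1 the difference was smaller (−0.89) and its unadjusted p higher (0.0184), and the adjusted p of 0.0488 goes with the 81 targets called in that fit. Without each of the other 6 arrays it did not pass (adjusted p = 0.0562 to 0.189). Within slide 3, the slide that held both groups, miR-96-5p read 9.11% and 10.2% on the cyclic arrays and 1.82% and 2.93% on the pregnant ones. There the difference was −1.49 (adjusted p = 0.0235), with both pregnant arrays at the floor and so again without a spread of their own. With slide as a fixed block the difference was again −1.49 (adjusted p = 0.0487). Only slide 3 holds both groups, so this is the slide 3 difference and no second result. With slide as a random block the difference was −0.96 (adjusted p = 0.0772). With scan day as a block, and on the arrays of the scan day shared by both groups, it was −1.33 and did not pass (adjusted p = 0.0677 and 0.0643). The pregnant arrays of that day are replicates 3 and 4, which lie at the floor, so this value too has no pregnant spread. Slides 1 and 2 held 1 group each and gave no value of their own.

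**Figure D2:**
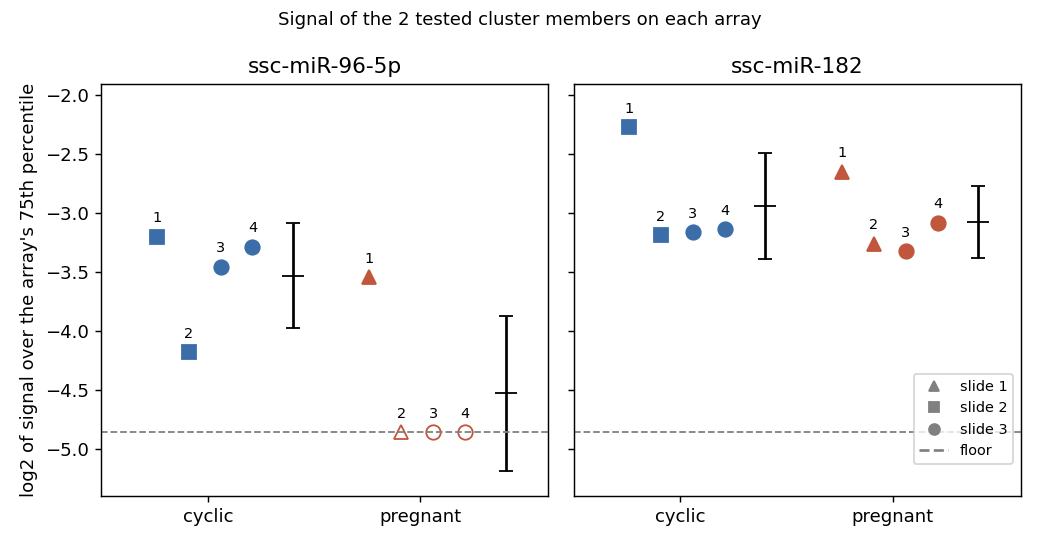
Log2 signal of ssc-miR-96-5p (left) and ssc-miR-182 (right) relative to the 75th percentile of each array, by group, with the replicate number above each point, the slide as the marker shape, open markers where the target was not detected and bars for mean ± SD (n = 4). The dashed line is the floor at −4.86, where 3 pregnant arrays of miR-96-5p lie, while miR-182 overlaps fully between the groups.

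The other tested member, miR-182, shares its target FOXO1 with miR-96 in human cells. On its brightest probe (6 spots, all well above background on every array) it gave 20.7%, 11.0%, 11.2% and 11.4% of the 75th percentile on cyclic replicates 1 to 4. On pregnant replicates 1 to 4 it gave 16.0%, 10.4%, 10.0% and 11.8%. The groups overlapped, and replicate 1 of either group stood above the other 3 arrays of its group. The same 2 arrays were the highest on the other 2 probes as well, with 7.75% and 6.12% on one and 4.12% and 3.07% on the dimmest, which was detected on 0 arrays.

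On the log2 scale miR-182 averaged −2.94 ± 0.45 on the cyclic arrays and −3.08 ± 0.30 on the pregnant ones (SD, n = 4). Its difference of −0.14 ± 0.24 (SE) did not pass in limma (adjusted p = 0.758). The 95% confidence interval ran from −0.67 to 0.39, that is from 0.631 to 1.31 of the cyclic level, and so held falls as well as rises. The difference was −0.05 within slide 3 and −0.26 on the arrays of the scan day shared by both groups. Without cyclic replicate 1 it turned to 0.08 (adjusted p = 0.770), and it was 0.16 when arrays were scaled over all probes, a setting that raised the median difference of all tested targets by 0.30. The next brightest probe gave −0.19.

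The remaining guide strand, miR-183, had 0 of 147 spots well above background over all arrays. Its brighter probe averaged 2.45, 1.73, 0.964 and 3.44 intensity units on cyclic replicates 1 to 4. The pregnant averages were 0.785, −0.00104, −1.03 and −1.15 units. These cyclic averages lay above the pregnant ones, but all 8 were under the 95th percentile of the negative control spots of their own array, and the other probe averaged below 0 on every array with overlapping groups. No fold or test is given for a signal at this level. The opposite strands hsa-miR-182-3p (0 of 158 spots) and hsa-miR-183-3p (0 of 159 spots) were not well above background on any array either.

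Since the hairpins are neighbours, the 2 tested members were set against each other within each array, a quantity that scaling between arrays can move only through the floor. The level of this log2 difference depends on the probes and has no meaning of its own, and only its change between groups was read. It was −0.93, −0.99, −0.30 and −0.15 on cyclic replicates 1 to 4 and −0.90, −1.60, −1.54 and −1.78 on pregnant replicates 1 to 4. On the 3 pregnant arrays other than replicate 1, miR-96-5p lies at the floor, so these values are upper limits that vary only with miR-182. They lay below all cyclic arrays, and replicate 1 of both groups took nearly the same value. The groups differed by −0.86 (means −0.59 ± 0.43 and −1.45 ± 0.39, SD, n = 4), with p = 0.0857 in the exact 2-sided permutation test. With 0.5 of the floor, where the brighter probe enters as measured, the difference was −1.22 with the same p. An unequal change of the 2 members was therefore not shown at 0.05 with these values. The p was 0.0286, the smallest this design allows, when a target was averaged over all its probes (−1.18), when the second probes were used (−0.57), and with the total gene signal that the scanner software computes (−1.35). On the second probes miR-96-5p again lies at the floor on pregnant replicates 2, 3 and 4. The second miR-182 probe was detected on 4 arrays and lies at the floor on pregnant replicate 3, so that value is fixed by the floor. Without pregnant replicate 1 the p was 0.0286 as well (−1.05), again the smallest value that 3 against 4 arrays allow. In the other settings it did not pass: p was 0.0857 to 0.171 with each other array left out in turn, 0.0857 with the deposited values, with normexp background correction and with either other floor, and 0.0571 with quantile normalization or the dimmest miR-182 probe. Slide 3 alone, with 2 arrays against 2, cannot go below 0.333.

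**Figure D3:**
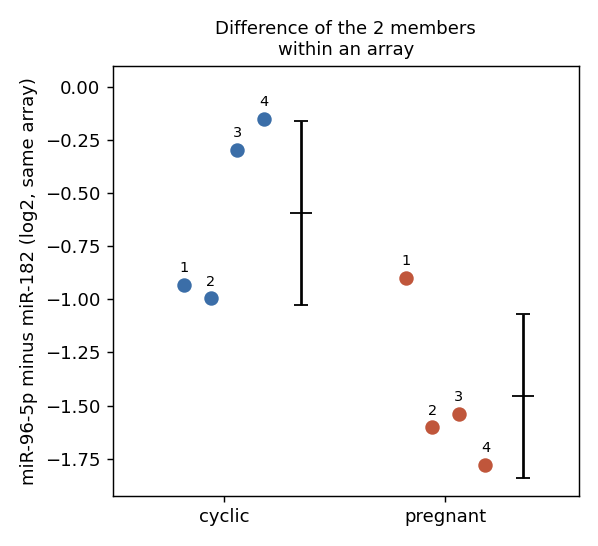
Log2 signal of miR-96-5p minus that of miR-182 on the same array (vertical axis) for the 4 cyclic and 4 pregnant arrays, with replicate numbers above the points and bars for mean ± SD (n = 4). Pregnant replicates 2, 3 and 4, where miR-96-5p is at the floor, lie below −1.5, and pregnant replicate 1 at −0.90 lies among the cyclic arrays.

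Over the 8 arrays the log2 signals of miR-96-5p and miR-182 had a Pearson r of 0.615 and a Spearman rho of 0.634, a description of 8 points that share their array, scaling and, for 3 of them, the floor. Among the 166 targets detected on all 8 arrays, other than the member itself, the patterns most like that of miR-96-5p were those of ssc-miR-345-3p (r = 0.739), ssc-miR-370 (r = 0.712) and ssc-miR-671-5p (r = 0.703). Of these, miR-345-3p passed the test (−1.31 ± 0.17, adjusted p = 0.00163), whereas miR-370 (−0.25, adjusted p = 0.383) and miR-671-5p (−0.41, adjusted p = 0.101) did not. Over all tested targets 11.3% passed. The 3 were picked by their pattern over both groups, a choice that favours targets lower in pregnancy, so the pass is no support. On pregnant replicate 1, where miR-96-5p was at its cyclic level, miR-345-3p stood at −3.87 beside −3.93 to −4.21 on the other pregnant arrays, below its cyclic range of −2.87 to −2.31. The patterns most like that of miR-182 were those of ssc-miR-365-3p (r = 0.848), ssc-miR-9793-5p (r = 0.715) and ssc-miR-374b-5p (r = 0.661), whose differences of −0.06, 0.02 and −0.0034 did not pass (adjusted p = 0.852, 0.962 and 0.986). Like miR-182, by whose pattern it was picked, miR-365-3p was highest on replicate 1 of both groups.

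Other miRNAs with ties to the cluster were read from the same fit. Of further miRNAs that repress FOXO1 in human tumour cells (miR-9, miR-27a, miR-153 and miR-186, 8 entries), 1 was tested. This was ssc-miR-27a, which differed by −0.49 ± 0.21 (adjusted p = 0.135) and did not pass. The 2 entries of miR-1271, which carries the seed of miR-96, were detected on 0 arrays. Of miRNAs linked to luteinization or gonadotropins (miR-21, miR-132, miR-212, miR-202 and miR-378, 9 entries), 6 were tested, of which 0 rose, 2 fell and 4 did not pass, with a median difference of −0.32 against 0.0038 over all tested targets, of which 6.13% fell and 5.19% rose. The members that fell were mmu-miR-21a-3p, the opposite strand of miR-21 (−2.18 ± 0.41, adjusted p = 0.0105), and ssc-miR-132, a gonadotropin-induced miRNA (−1.35 ± 0.38, adjusted p = 0.0443). The bright ssc-miR-21 differed by −0.37 ± 0.17 (adjusted p = 0.141) and ssc-miR-202-5p by −0.28 ± 0.17 (adjusted p = 0.294). In the other direction, ssc-miR-202-3p differed by 0.74 ± 0.33 (adjusted p = 0.141) and ssc-miR-378 by 0.41 ± 0.22 (adjusted p = 0.228).

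Epithelial cells are a common source of the cluster, and most of the listed epithelial miRNAs were not detected here. Of 10 entries of the miR-200 family with miR-203 and miR-205, 8 were detected on no array, among them every entry of miR-200a, miR-200b, miR-200c and miR-429. The 2 that were tested, hsa-miR-141-3p (0.04 ± 0.19, adjusted p = 0.937) and hsa-miR-203a-3p (−0.46 ± 0.19, adjusted p = 0.135), did not pass. Of these, hsa-miR-141-3p was detected on all 8 arrays. Its mean log2 signal was −3.20, beside −3.01 for miR-182 and −4.03 for miR-96-5p. These levels depend on the probes and are no comparison of amounts, and the miR-96-5p mean includes 3 arrays at the floor. The part of epithelial cells in the signal of the cluster was not tested. The summed signal of the detected ones was 0.136 to 0.175 of the 75th percentile on cyclic and 0.130 to 0.160 on pregnant arrays. These ranges overlapped. The neuroendocrine miR-7, miR-124 and miR-375 (6 entries) gave 0 tested targets.

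Leukocyte miRNAs were read from a list as well. Of 8 entries of miR-142, miR-150, miR-155 and miR-223, 5 were tested, of which ssc-miR-155-5p fell (−0.96 ± 0.25, adjusted p = 0.0323), 0 rose and 4 did not pass, beside 6.13% lower and 5.19% higher over all tested targets. The other tested entry of miR-155, bta-miR-155, differed by −0.34 ± 0.20 (adjusted p = 0.270) and did not pass. The median of the list was −0.65, and ssc-miR-150 differed by 0.01. The neutrophil miRNA hsa-miR-223-3p stood at −2.29 ± 0.76 (adjusted p = 0.0767). The summed signal of the detected ones was 0.550 to 4.52 times the 75th percentile on cyclic and 0.529 to 0.659 times on pregnant arrays, which overlap, and ssc-miR-142-3p, mmu-miR-223-5p and ssc-miR-155-3p were detected on none. The part of leukocytes in the miR-96-5p values was not tested. In the fibroblast list (miR-199a, miR-199b and miR-214, 5 of 6 tested), the smooth muscle list (miR-143 and miR-145, 4 of 4), the endothelial list (miR-126, 2 of 2), the erythroid list (miR-144 and miR-451, 2 of 4 with miR-486) and the gonad list (miR-202, 2 of 2), 0 members passed (against 11.3% of all tested targets), with medians of −0.45, −0.15, 0.04, −0.02 and 0.23. The brightest of these were ssc-miR-126-3p (0.16) and ssc-miR-451 (0.10 ± 0.62).

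**Figure D4:**
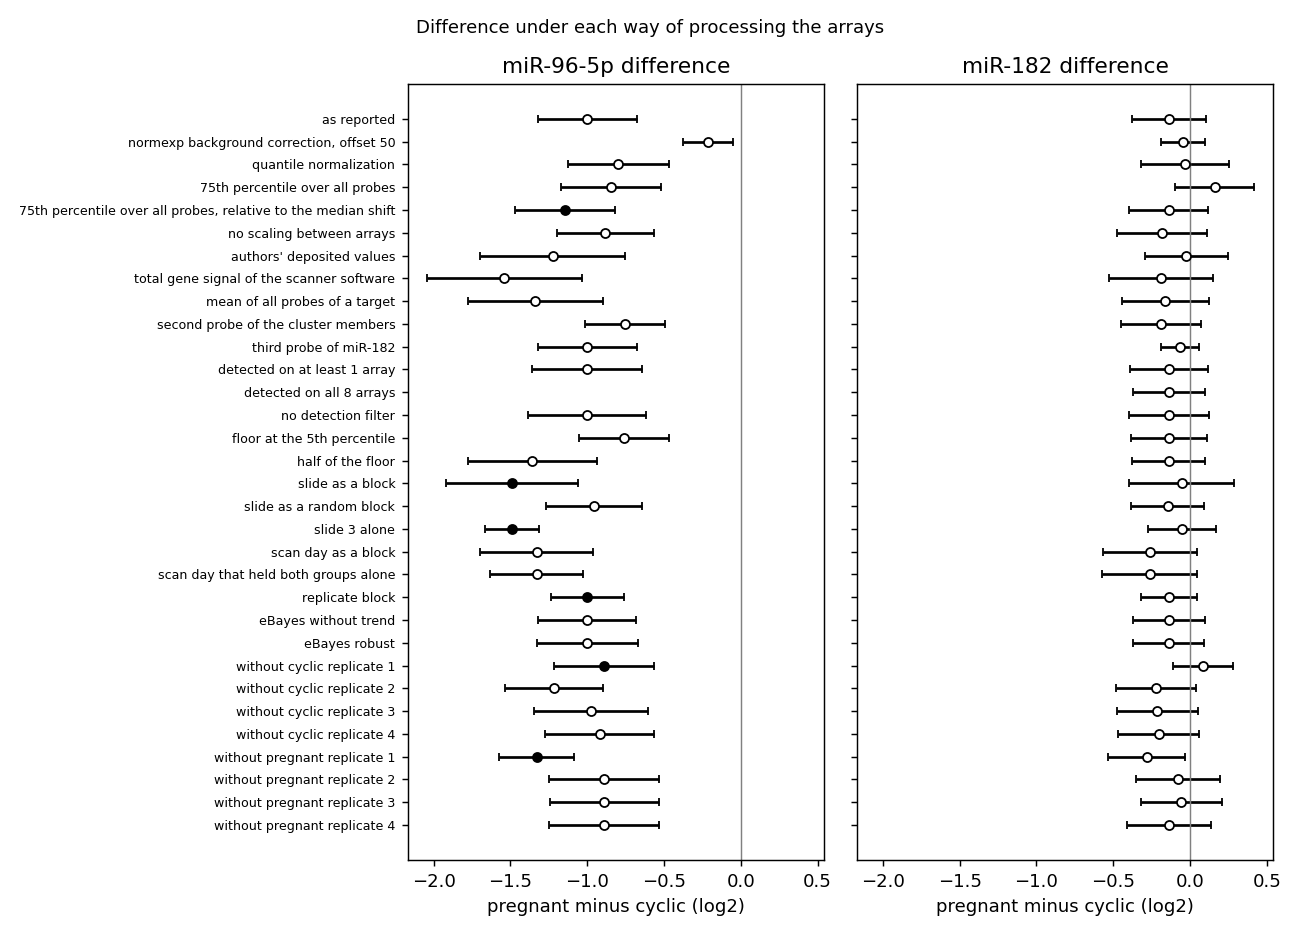
Log2 difference, pregnant minus cyclic, of miR-96-5p (left) and miR-182 (right) with its standard error under each way of processing the arrays or with an array left out, where filled points have an adjusted p under 0.05. The miR-96-5p difference lies below 0 in every setting shown, between −1.54 and −0.21, and that of miR-182 lies on both sides of 0.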

How the data were processed

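Per the file headers, the deposited scanner files hold linear intensity values per spot, background-subtracted and detrended by Agilent Feature Extraction 10.7.3.1 (10.7 per the submitters' processing notes). Per the labels, the Cy3 labelling started from 100 ng of RNA, with RNA integrity numbers above 8. The authors also deposited a table of values per spot which, set against the scanner values (r from 0.919 to 0.980), are log2 and centred for each spot, running in the same direction. Its column medians were 0.0108, −0.000283, 0.000689 and −0.000205 for cyclic and −0.000302, 9.45e-05, −9.45e-05 and 0.0318 for pregnant replicates 1 to 4. In 2 columns the deposited values were taken as a score, being log2 apart from 3 cells read as missing. The scaling the authors used is not given in the sources used here, and the table served as an alternative.

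Control spots (715) and outlier spots (384 to 453 per array) were left out, the spots of a probe were averaged, arrays were divided by their 75th percentile over the 166 targets detected on all arrays, and the probe with the highest mean stood for a target. Differences were fitted over all 163 porcine and 49 other tested targets with limma 3.58.1 (lmFit, eBayes with trend, 2-sided, Benjamini-Hochberg, 0.05) in R 4.3.3, and the script was tested on simulated data. Plots used matplotlib 3.10.9. Alternatives are named in the closing section. The number of arrays limits the precision. The members, the lists and the rule for named targets (all members, the 3 tested targets most correlated with each, and list members that passed or were brightest) were chosen with earlier results of these data known. miRNAs shown beyond that rule were chosen after their values were seen. Samples of the same replicate number correlated by 0.104, 0.0976, −0.177 and 0.160 after group means were removed, so the numbers were not taken as pairs.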

Additional observations from a re-analysis of the deposited data

Results flagged for a closer look

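In the cyclic group, miR-182 on replicate 1 stood at −2.27 (log2) beside −3.14 for the next array, a gap of 0.945 of the range of the group. In the pregnant group, miR-96-5p on replicate 1 stood at −3.54 beside −4.86 for the other 3 arrays, which all lie at the floor, so that the gap is the whole range (1.00). The miR-182 gap exceeds Dixon's 95% critical value for 4 samples, which chance passes in about 1 of 20 such groups. For miR-96-5p that comparison does not apply, because values tied at the floor make the gap the whole range. With no floor, a setting chosen after seeing the data, the gap was 0.691 of the range and under the critical value. No other group of the 2 tested members or of their within-array difference stood out in this way.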

How the results depend on the processing

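The count of changed targets, 24 as reported, was 11 with normexp background correction, 15 with quantile normalization, 62 with scaling over all probes (55 higher, 7 lower, against 11 and 13 as reported), 9 without scaling, 10 with total gene signal, 9 with the mean of all probes, 11 with detection on at least 1 array, 1 with no detection filter, 11 with the floor at the 5th percentile, 9 on slide 3 alone, 2 with scan day as a block and 2 on the arrays of the scan day shared by both groups, a setting chosen after seeing the data. It was 7 to 81 with 1 array left out (81 without cyclic replicate 1, and 7 to 12 without any other), the detection filters having tested 241 and 686 targets. The miR-96-5p difference stayed below 0 in all 30 other settings that gave a value and passed in 6. It passed with scaling over all probes relative to the median shift (−1.14), slide as a block (−1.49), slide 3 alone (−1.49) and the replicate block (−1.0, adjusted p = 0.0295), although the numbers are not taken as pairs, and it ran from −1.33 to −0.89 with 1 array left out. Slide as a block and slide 3 alone give the same estimate, with the pregnant arrays of slide 3 at the floor. The setting relative to the median shift lowers the pregnant arrays by 0.30 after flooring. Pregnant arrays at the floor then lie below the floor of the cyclic ones. Without that step the difference was −0.84 and did not pass in limma (adjusted p = 0.0685). The pass without pregnant replicate 1 is not read, and that without cyclic replicate 1 goes with 81 called targets. Under normexp, whose offset of 50 exceeds the miR-96-5p intensities, the miR-96-5p difference was −0.21. With detection on all 8 arrays it has no value. The miR-182 difference turned to 0.16 with scaling over all probes, ran from −0.28 to 0.085 with 1 array left out (0.085 without cyclic replicate 1), and passed in 0 of 31 settings (adjusted p 0.516 to 0.984). The within-array difference was −1.35 with total gene signal, −1.18 with the mean of all probes and −0.57 with the second probe (exact p = 0.0286 each), and −1.05 to −0.71 with 1 array left out. The second-probe value rests on pregnant arrays at the floor, as given above. The share of spots differed by −91.9 to −58.6 points with 1 array left out (−91.9, exact p = 0.0286, without pregnant replicate 1). The cause of these shifts was not tested. miR-183 and the opposite strands lay at background, so their change could not be measured here.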
